A study of Mus musculus with 2 samples.

Results

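Cells of subcutaneous SO ovarian tumors were gated from a WT and a TSK single-cell library as collagen-expressing cells with little or no Clec3b, Pi16 and Cd34, the genes that mark adventitial-type and progenitor-like fibroblasts in skin. A cell was a member if it had at least 3 UMIs (unique molecular identifiers, each counting 1 captured RNA molecule) of Dcn, Lum and Pdgfra together, at least 5 of Col1a1, Col1a2 and Col3a1, none of Ptprc and Csf1r, fewer than 3 of Pecam1, Cdh5 and Cldn5, and fewer than 2 of Clec3b, Pi16 and Cd34. These UMI counts chose the members, so the levels of the genes of the gate are given only as a description. The gate was applied to cells with at least 200 genes, at least 500 UMIs and at most 10% of UMIs in mitochondrial genes, with no upper limit, after the 263 barcodes found in both libraries were left out. It found 260 cells among 4403, 24 among 1442 WT cells and 236 among 2961 TSK cells. The gated cells with 2 or more UMIs of Clec3b, Pi16 and Cd34, 67 in WT and 156 in TSK, are called Clec3b fibroblasts here.

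The WT group was WT C57BL/6 mice and the TSK group was tight skin mice of the same strain, which carry 1 copy of Fbn1 with a duplication inside the gene and serve as a model of systemic sclerosis. Both groups were females of 6 to 8 weeks that received 1000000 SO cells, a syngeneic mouse ovarian cancer line that lacks p53 and expresses Hras and myc. Tumors of several mice were pooled by genotype, digested with enzymes, depleted of dead cells and made into 1 library per genotype without selection of any cell type. With 1 library per genotype there was no spread between replicates and no test of a genotype difference was possible: intervals after values are exact 95% intervals that cover counting error only.

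Fibroblasts in skin and tumors build and remodel the extracellular matrix, a network of fibrillar collagens, proteoglycans such as decorin (Dcn) and lumican (Lum), and microfibrils whose core protein is fibrillin-1 (Fbn1). In tumors, some fibroblasts lose the Clec3b, Pi16 and Cd34 program and express periostin (Postn), tenascin C (Tnc) and, in myofibroblasts, Acta2, Tagln and Lrrc15. Tumor cells that have adopted mesenchymal features can also express some collagen and proteoglycan genes, so markers of both are described for the members.

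The markers given for matrix fibroblasts went against that name for most of the members. Of the 260 members, 209 (80.4%) had 3 or more UMIs of Lgals7 and Cdkn2a together, the markers set down for the tumor cells, and these cells supplied 92.5% of all member UMIs. They were 11 of 24 WT members (45.8%, 25.6 to 67.2%) and 198 of 236 TSK members (83.9%, 78.6 to 88.4%). Lgals7 encodes galectin-7, a galactoside-binding lectin of stratified epithelia, and Cdkn2a encodes the cell cycle inhibitors p16INK4a and p19ARF. Another 11 members, 3 in WT and 8 in TSK, reached 3 UMIs of a mural, macrophage, T cell, neutrophil or red cell list. The remaining 40, 10 in WT and 30 in TSK, had fewer than 3 UMIs of each of these lists. The account below therefore keeps the 209 Lgals7/Cdkn2a-positive members and the 40 members without other-type markers apart, a split made after the values were seen. Like the gate, this split uses an absolute limit of UMIs, so it depends on the depth of a cell. A TSK cell counted as positive with 3 UMIs of Lgals7 and Cdkn2a also had 117 of Col1a1 and Col1a2 and 21 of Postn.

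**Figure D1:**
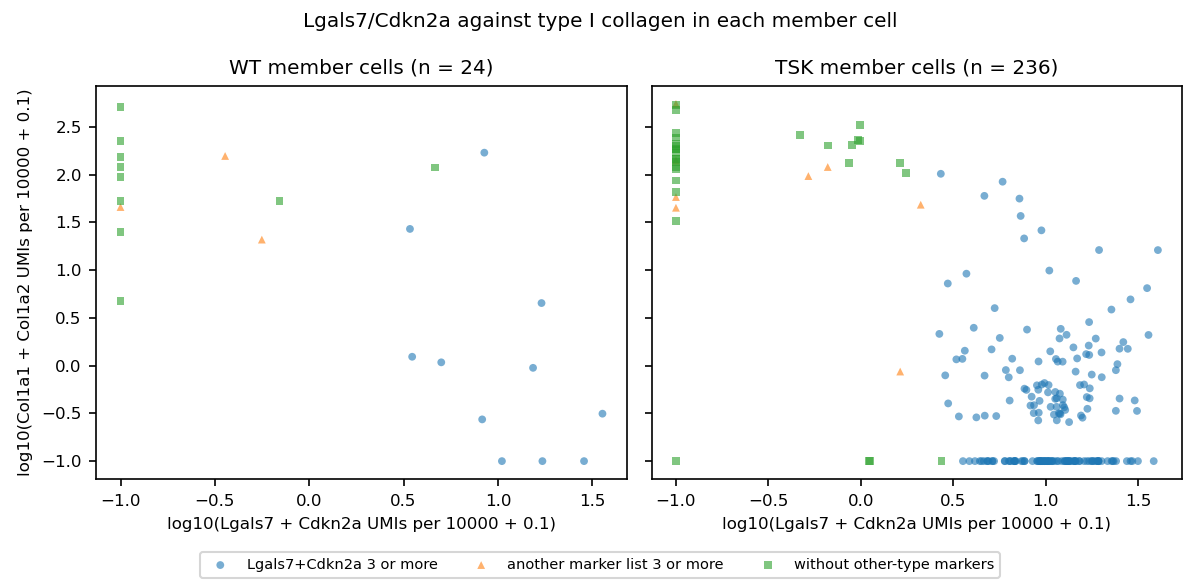
Each point is 1 member cell of the WT (n = 24) or TSK (n = 236) library, with UMIs of Lgals7 and Cdkn2a per 10000 UMIs on the x axis and of Col1a1 and Col1a2 on the y axis, both as log10 with 0.1 added, and colors for the 3 kinds of members. The Lgals7/Cdkn2a-positive members lie at the right with medians of 0.847 (WT) and 0.195 (TSK) type I collagen UMIs per 10000, and the members without other-type markers lie at the left with medians of 106 and 158.

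Both kinds differed in type I collagen, the main fibrillar collagen of skin. In the members without other-type markers, Col1a1 and Col1a2 together ranged from 4.62 to 509 UMIs per 10000 in WT (median 106) and from 0 to 538 in TSK (median 158). In the Lgals7/Cdkn2a-positive members they ranged from 0 to 169 in WT (median 0.847) and from 0 to 102 in TSK (median 0.195). The ranges overlapped, but 9 of 10 WT and 26 of 30 TSK members without other-type markers had at least 10 UMIs per 10000, against 2 of 11 and 9 of 198 Lgals7/Cdkn2a-positive members. No type I collagen UMI was found in 3 WT and 93 TSK Lgals7/Cdkn2a-positive members, and these passed the gate through Col3a1.

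The promoters of Postn and Lgals7 are shown because these markers lay on opposite sides of the split, Postn in the members without other-type markers and Lgals7 in the others. Sequences are from RefSeq (GRCm38.p6), from 250 bases before to 50 after the start of the gene, on the + strand, 5′ to 3′. The Postn promoter lies at chr3:54360857-54361156 and that of Lgals7 at chr7:28864136-28864435, and capitals mark TATAAA, the core of the TATA box.
Postn: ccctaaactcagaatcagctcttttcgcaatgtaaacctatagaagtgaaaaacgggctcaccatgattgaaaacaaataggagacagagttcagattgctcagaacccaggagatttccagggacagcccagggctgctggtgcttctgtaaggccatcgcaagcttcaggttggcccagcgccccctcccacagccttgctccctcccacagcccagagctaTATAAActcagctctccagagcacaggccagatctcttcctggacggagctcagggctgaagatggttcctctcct
Lgals7: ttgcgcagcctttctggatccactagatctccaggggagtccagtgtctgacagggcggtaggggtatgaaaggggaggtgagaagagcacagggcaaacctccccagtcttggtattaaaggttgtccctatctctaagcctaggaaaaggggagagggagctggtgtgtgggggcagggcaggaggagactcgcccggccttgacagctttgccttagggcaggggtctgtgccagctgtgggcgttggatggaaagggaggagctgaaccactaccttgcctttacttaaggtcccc
In the Postn promoter TATAAA begins at base 225 of 300, and it was not found in that of Lgals7. CCAAT, or ATTGG on the other strand, was found in neither. Among 32851 promoters of this length, 8.32% held TATAAA on the strand of the gene, 13.6% held it on either strand and 37.4% held CCAAT or ATTGG. The Postn gene (ENSMUSG00000027750) spans chr3:54361109-54391037 in the gene annotation of GRCm38 and Lgals7 (ENSMUSG00000053522) spans chr7:28863853-28866284, so the RefSeq start used for Lgals7 is not the first start of the annotated gene.

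Postn, a matricellular protein of collagen-rich matrix and a marker set down for these cells, was found in 8 of 10 WT and 24 of 30 TSK members without other-type markers. Its level there ranged from 0 to 39.2 UMIs per 10000 in WT (median 9.31) and from 0 to 103 in TSK (median 11.8). Of the Lgals7/Cdkn2a-positive members, none of 11 in WT and 16 of 198 in TSK had a Postn UMI. Shares of cells with a UMI depend on depth, so each cell was also thinned to 2000 UMIs, which left out 2 of the 10 WT members without other-type markers as too shallow. After thinning, Postn was found in 57.7% (WT) and 72.2% (TSK) of the members without other-type markers and in 0% and 2.96% of the Lgals7/Cdkn2a-positive ones. The T cells of the same libraries, a cell type that should lack Postn, gave 1.87% and 1.53% after thinning, with median depths of 6981 (WT) and 3274 UMIs (TSK).

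The proteoglycan genes and Col3a1 of the gate were less distinct. Dcn had a median of 1.05 (WT) and 1.07 (TSK) UMIs per 10000 in the Lgals7/Cdkn2a-positive members and of 10.9 and 6.26 in the members without other-type markers, against 32.9 and 41.1 in the Clec3b fibroblasts without other-type markers. After thinning, Dcn was found in 37.7% and 25.9% of the Lgals7/Cdkn2a-positive members, in 1.34% and 2.23% of the T cells, and in 9.61% and 8.57% of the Lgals7/Cdkn2a-positive cells outside the gate, an order that the gate itself sets. Col3a1 had a median of 3.98 and 3.65 UMIs per 10000 in the former and of 50.6 and 56.8 in the members without other-type markers. Lum was found in 5 of 10 WT and 10 of 30 TSK members without other-type markers, and in 5 of 11 and 125 of 198 Lgals7/Cdkn2a-positive members. These shares of Lum are not thinned, and the Lgals7/Cdkn2a-positive members were the deeper cells.

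Many members stood close to the limits of the gate. Exactly 3 UMIs of Dcn, Lum and Pdgfra were found in 6 of 24 WT and 40 of 236 TSK members, and the medians were 7.5 and 7 UMIs, against 75 and 42.5 in the Clec3b fibroblasts. On the other limit, 12 WT and 47 TSK members had 1 UMI of Clec3b, Pi16 and Cd34 and the rest had none, while 8 WT and 15 TSK gated cells lay just outside with 2. The gate uses absolute UMI counts, so depth moves membership in both directions.

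**Figure D2:**
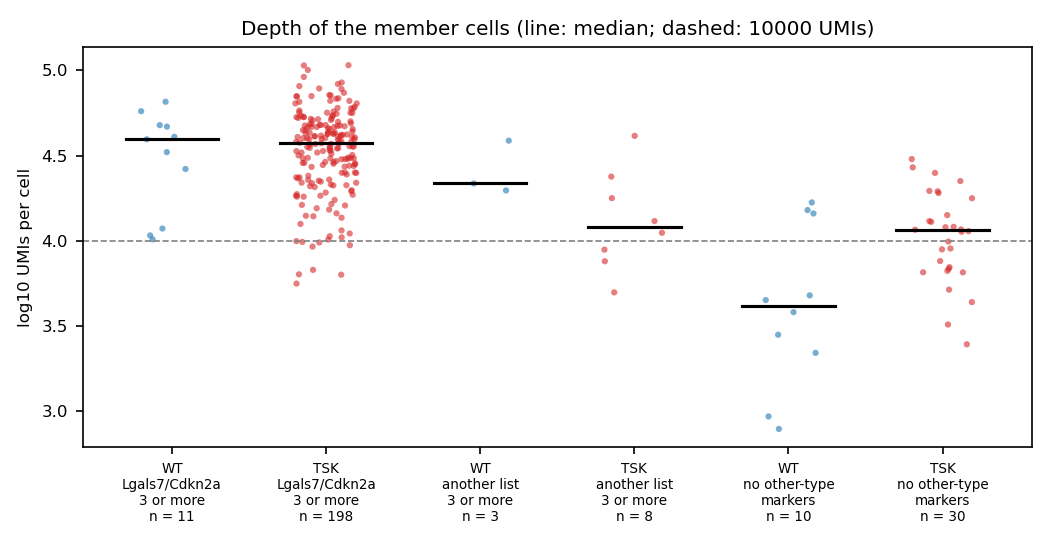
Each point is 1 cell, with log10 of its UMIs on the y axis, grouped by kind of member and library; lines are medians and the dashed line marks 10000 UMIs. The Lgals7/Cdkn2a-positive members have medians of 39429 (WT) and 37378 (TSK) UMIs, and the members without other-type markers medians of 4147.5 and 11502.5.

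The members together held 536464 UMIs in WT and 8161107 in TSK, with medians of 15968.5 (786 to 65471) and 32958 (2468 to 107350) UMIs per cell. Above 10000 UMIs, the upper limit that the study put on its cells, lay 17 of 24 WT and 211 of 236 TSK members. The 10 WT members without other-type markers held 66200 UMIs and the 30 TSK ones 374914, with medians of 780.5 and 3101.5 detected genes. Gm42418, an annotated gene that overlaps ribosomal RNA sequence, took a median of 16.8% of their UMIs in WT (0.43 to 88.4%) and 6.38% in TSK (1.36 to 23%). The 96 ribosomal protein genes took 1.16% in WT (0.0991 to 14.6%) and 12.9% in TSK (1.35 to 24.9%). One WT cell held 13391 Gm42418 UMIs among 15142 and only 282 genes. The same measures in the Clec3b fibroblasts without other-type markers were 26.1% and 12.8% for Gm42418 and 6.16% and 12.2% for ribosomal protein genes. The WT members without other-type markers were shallower than the other gated groups, and 7 of 10 had under 5% of UMIs in ribosomal protein genes, against 6 of 30 in TSK.

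**Figure D3:**
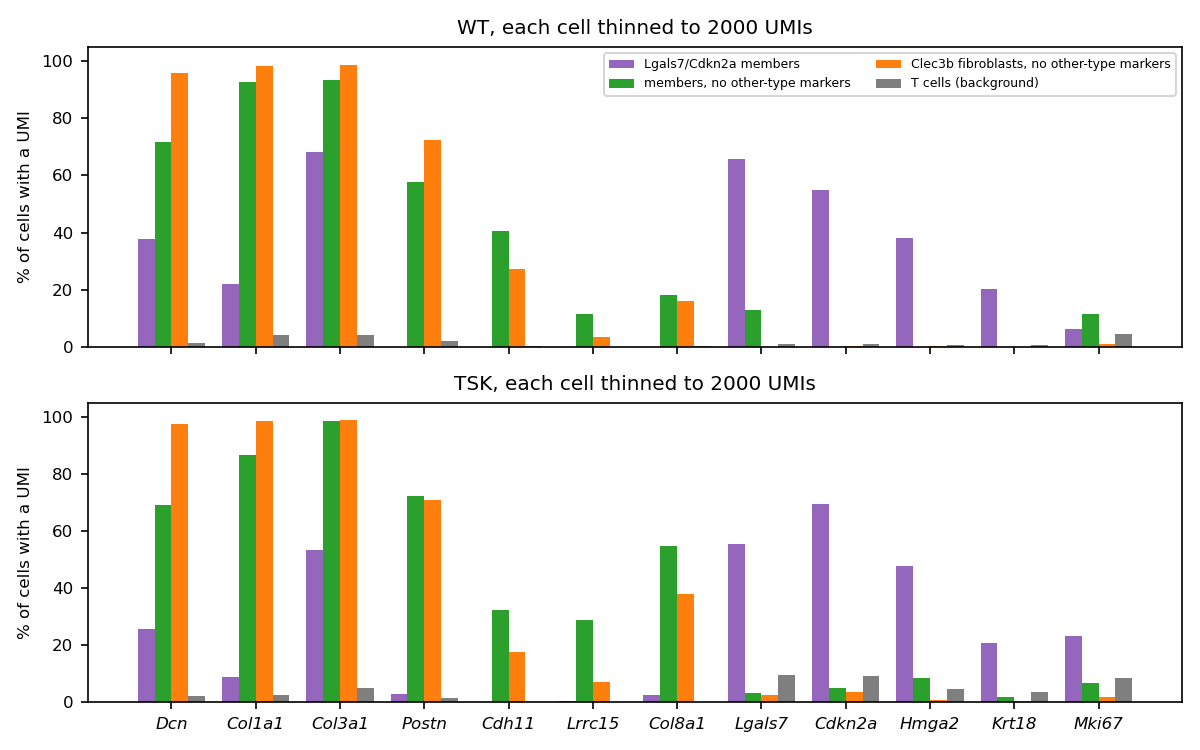
Share of cells with at least 1 UMI of each gene on the x axis after each cell was thinned to 2000 UMIs, in percent, with WT above and TSK below. Bars are for the Lgals7/Cdkn2a-positive members, the members without other-type markers, the Clec3b fibroblasts without other-type markers and the T cells. Postn stands at 57.7% (WT) and 72.2% (TSK) in the members without other-type markers and at 0% and 2.96% in the Lgals7/Cdkn2a-positive members, where Lgals7 stands at 65.8% and 55.5%.

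The Lgals7/Cdkn2a-positive members had the following levels of the genes that define them, which are a description. Lgals7 was found in 11 of 11 WT and 188 of 198 TSK cells, at medians of 7.44 (0.302 to 23.3) and 4.36 (0 to 34.2) UMIs per 10000. Cdkn2a was found in 11 of 11 and 197 of 198, at medians of 3.03 (0.93 to 12.4) and 6.12 (0 to 19.1). These levels overlapped between the libraries. In TSK, the T cells, which should lack both genes, had Lgals7 in 9.55% and Cdkn2a in 9.39% after thinning, against 55.5% and 69.5% of these members.

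Beyond the genes of the rule and the split, other genes differed between both kinds of members. Among 3549 genes with at least 20 UMIs in each library, 11.4% (403) were 2-fold or more higher in the Lgals7/Cdkn2a-positive members in both libraries and 7.3% (259) were 2-fold or more lower. Lgals7 and Cdkn2a, which the split used, are 2 of the 403, and 1 mural gene, the only other gene of the splitting lists that was tested, is in neither count. Hmga2, a chromatin protein of embryonic and transformed cells, was found in 8 of 11 WT and 186 of 198 TSK Lgals7/Cdkn2a-positive members. In the members without other-type markers Hmga2 had no UMI in WT, which made it at least 13-fold higher in the Lgals7/Cdkn2a-positive members there, and it was higher by 2.34 on the log2 scale in TSK. Fabp5, a fatty acid binding protein, was higher by 4.01 and 2.76, Sema3a, a secreted guidance cue, by 4.10 and 4.01, and Dut, which breaks down dUTP in DNA synthesis, by 3.0 and 2.47 on the log2 scale. Krt18, a keratin of simple epithelia, was at least 3.34-fold higher in WT and higher by 6.39 on the log2 scale in TSK, and it was found in 7 of 11 and 103 of 198 cells.

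On the other side stood genes of fibroblast matrix and guidance. Slit3, a secreted ligand of Robo receptors, was at least 422-fold lower in the Lgals7/Cdkn2a-positive members of WT and lower in TSK, with a log2 difference of -7.39. Cdh11, a cadherin of mesenchymal cells, was at least 57-fold lower in WT and differed by -7.56 in TSK. The log2 differences were -8.11 (WT) and -10.12 (TSK) for Abi3bp, a matrix protein that binds collagen, -7.17 and -6.70 for Col5a2, which regulates collagen fibril width, and -6.08 and -8.92 for Lox, which crosslinks collagen. Dpt, encoding dermatopontin of the dermis, was without a UMI in the 11 WT cells and had 8 among 198 TSK cells, so it was at least 110-fold lower in WT and differed by -7.02 in TSK. Fbn1 differed less, by -2.40 and -3.56. Of the lists, the fibrillar collagens had 2 of 2 genes lower in both libraries, the other collagens 3 of 7 lower and 1 higher (medians -0.46 in WT and -3.28 in TSK), and the crosslinking and folding genes 3 of 14 lower and none higher (medians 0.23 and -1.99), beside medians over all genes of 0.61 and 0.14.

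These cells were next set beside the 68 WT and 822 TSK cells with 3 or more UMIs of Lgals7 and Cdkn2a, and none of Ptprc and Csf1r, that were neither members nor Clec3b fibroblasts. The members were 12.5% (11 of 88, 6.41 to 21.3%) of all cells with these markers, Clec3b fibroblasts included, in WT and 18.9% (198 of 1046, 16.6 to 21.4%) in TSK. Of 8614 genes, 0.163% (14) were 2-fold or more higher in the members in both libraries and 0.662% (57) were lower. Cxcl5, a neutrophil-attracting chemokine, was higher by 3.17 (WT) and 1.55 (TSK) on the log2 scale, Ptn, encoding the growth factor pleiotrophin, by 2.57 and 1.43, Vcan, encoding the proteoglycan versican, by 1.25 and 1.24, and Eln, encoding elastin, by 2.91 and 1.15. Ebf1, a transcription factor of mesenchymal and B cells, was higher by 3.55 and 2.13, but its 70 WT UMIs were all in 1 cell. Apoe, a lipid carrier, differed by -4.81 and -2.23, and Sprr1a, a cornified envelope protein, was at least 5.26-fold lower in WT and differed by -3.44 in TSK. The differences for Lgals7 (-0.54 and -0.58), Cdkn2a (-0.13 and 0.08) and Hmga2 (0.40 and -0.06) were under 2-fold.

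Markers of other cell types were measured in the members as well. At least 3 UMIs of mural cell genes were found in 6 WT and 53 TSK members, with Mcam, an adhesion molecule of pericytes and tumor cells, as the leading gene (27 and 307 UMIs), while Rgs5 was at 0 in WT. Endothelial genes outside the gate reached 3 UMIs in 4 WT and 78 TSK members, where Plvap led with 70 and 688 UMIs, of which 70 and 679 were in Lgals7/Cdkn2a-positive members, and Kdr and Emcn were at 0 in WT. Sox9 led the tendon and cartilage list, which reached 3 UMIs in 5 and 85 members, with 37 of 42 WT and 567 of 597 TSK UMIs in Lgals7/Cdkn2a-positive members. The macrophage list was reached in 1 and 3 members, the T cell list in 0 and 1, and the neutrophil list in none. Of the 40 members without other-type markers, 1 TSK cell reached 3 UMIs of the endothelial genes, with Plvap leading at 5 UMIs. The tendon and cartilage list was reached in 3 of the 30 TSK cells of this kind, with Sox9 leading at 23 UMIs.

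Most of the 40 members without other-type markers held the collagen program, and the values varied widely from cell to cell. Col1a1 was found in 10 of 10 WT and 26 of 30 TSK cells, at medians of 42.9 (3.30 to 178) and 82.9 (0 to 280) UMIs per 10000. In 4 of the 30 TSK cells neither type I collagen nor Postn had a UMI, so these 4 were in the gate through Col3a1 alone. They had 2, 1, 2 and 0 UMIs of Lgals7 and Cdkn2a, under the limit of 3 that made the split. Sparc, a collagen-binding matricellular protein, was found in 9 of 10 and 25 of 30 cells, at medians of 19.6 (0 to 112) and 69.3 (0 to 161). All fibrillar collagen genes together made up a median of 1.76% of the UMIs of a cell in WT and 2.72% in TSK, against 0.0809% and 0.0457% in the Lgals7/Cdkn2a-positive members.

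Genes of myofibroblasts were found in up to 15 of the 30 TSK cells and in 1 of the 10 WT cells each. Lrrc15, a membrane protein of activated fibroblasts, was found in 1 of 10 WT cells, with 2 UMIs, and in 15 of 30 TSK cells, with 130 UMIs of which 43 were in 1 cell. Acta2, smooth muscle actin, was found in 1 of 10 WT cells (9 UMIs) and 13 of 30 TSK cells (324 UMIs, 182 in 1 cell). Tagln, an actin-binding protein of contractile cells, followed the same division, with 10 UMIs in 1 WT cell and 374 UMIs in 15 of 30 TSK cells, 179 of them in 1 cell. After thinning, Lrrc15 was found in 28.7% and Acta2 in 28.7% of the TSK cells, above 0.195% and 0.89% of the TSK T cells. In TSK, 15 cells had both Postn and Lrrc15 and 9 had Postn without Lrrc15. A single TSK cell, of 22413 UMIs, held these 43 Lrrc15, 182 Acta2 and 179 Tagln UMIs, a large part of those of Acta2 and of Tagln. In WT the UMIs of all 3 genes were likewise in the same cell, of 2808 UMIs.

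Other products of activated fibroblasts were more widely spread. Tnc was found in 23 of 30 TSK cells at a median of 16.8 UMIs per 10000 (0 to 148), and in 2 of 10 WT cells, where 19 of its 22 UMIs were in 1 cell. Col8a1, a short-chain collagen of vessel walls and activated stroma, was found in 23 of 30 TSK and 2 of 10 WT cells. Thbs1, encoding thrombospondin-1, which can activate latent TGF-beta, was found in 25 of 30 TSK and 2 of 10 WT cells. Spp1, encoding osteopontin, was found in 24 of 30 TSK cells (59.7% after thinning) and 2 of 10 WT cells, but also in 31.1% of TSK and 4.70% of WT T cells after thinning. Cxcl9, an interferon-induced T cell chemokine, was found in 10 of 30 TSK and 1 of 10 WT cells.

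Fbn1 (ENSMUSG00000027204, chr2:125300594-125507993, - strand), the gene altered in TSK mice, was found in 8 of 10 WT and 27 of 30 TSK members without other-type markers. Its level ranged from 0 to 32.8 UMIs per 10000 in WT (median 12.9) and from 0 to 56.7 in TSK (median 8.88), with overlap throughout. In the Lgals7/Cdkn2a-positive members its median was 2.10 (WT) and 0.492 (TSK), and in the Clec3b fibroblasts without other-type markers 12.2 and 19.4. Counts of 3′ ends cannot tell the duplicated transcript from the normal one, so they do not check the genotype.

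The members without other-type markers were compared with the 53 WT and 118 TSK Clec3b fibroblasts that also lacked these markers, within each library. Of 5260 genes outside the rule, 2.97% (156) were 2-fold or more higher in the members in both libraries and 2.47% (130) were lower, with median log2 differences over all genes of 0.00 in WT and 0.17 in TSK. On the higher side stood Tagln (3.27 in WT, 4.04 in TSK) and Spp1 (3.05 and 4.57), each resting in WT on 10 and 7 UMIs of the members. Ank, a pyrophosphate transporter, was higher by 4.48 and 2.36, but 38 of its 39 WT and 34 of its 57 TSK UMIs were in 1 cell each. Median depth was 4147.5 against 19886 UMIs in WT and 11502.5 against 9580.5 in TSK.

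The lower side held secreted and acute phase genes of adventitial-type fibroblasts. Gsn, encoding the actin-severing protein gelsolin, had 37 UMIs in the WT members and 4064 in the WT Clec3b fibroblasts, and 103 and 2869 in TSK, with log2 differences of -2.83 and -3.14. Complement C3 differed by -3.36 and -2.33, Serpina3n, a serine protease inhibitor of the acute phase, by -2.83 and -2.51, Has1, a hyaluronan synthase, by -2.67 and -3.20, and Selenop, a selenium transport protein, by -2.68 and -3.03. Tppp3, a tubulin-binding protein of tendon sheath and adventitial cells, differed by -3.03 and -3.57. Prelp, a proteoglycan that anchors basement membranes, was at least 5.1-fold lower in WT and differed by -2.04 in TSK. Of the fixed lists, the cytokine and acute phase genes had 8 of 29 members lower and none higher, the skin fibroblast genes 6 of 14 lower and none higher, and the proteoglycans 4 of 11 lower and none higher. The fibrillar collagens had none of 5 past 2-fold in both libraries, with median log2 differences of -0.37 in WT and 0.68 in TSK.

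Several matrix genes stood on opposite sides of 0 in the libraries. Tnc differed between members and Clec3b fibroblasts by -0.71 (-1.40 to -0.10) in WT and by 2.43 (2.31 to 2.55) in TSK, Postn by -1.65 and 0.78, Col8a1 by -1.25 and 0.44, and Col1a1, a gene of the rule, by -2.01 and 0.09. Lrrc15 was at -0.22 (-3.32 to 1.74) in WT, on 2 UMIs, and Fbn1 at 0.08 (-0.23 to 0.37), so neither had a direction there within counting error, and in TSK they differed by 3.01 and -1.32. The WT values rest on 10 cells with the low ribosomal protein shares given above, and the part of that in these differences was not tested.

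**Figure D4:**
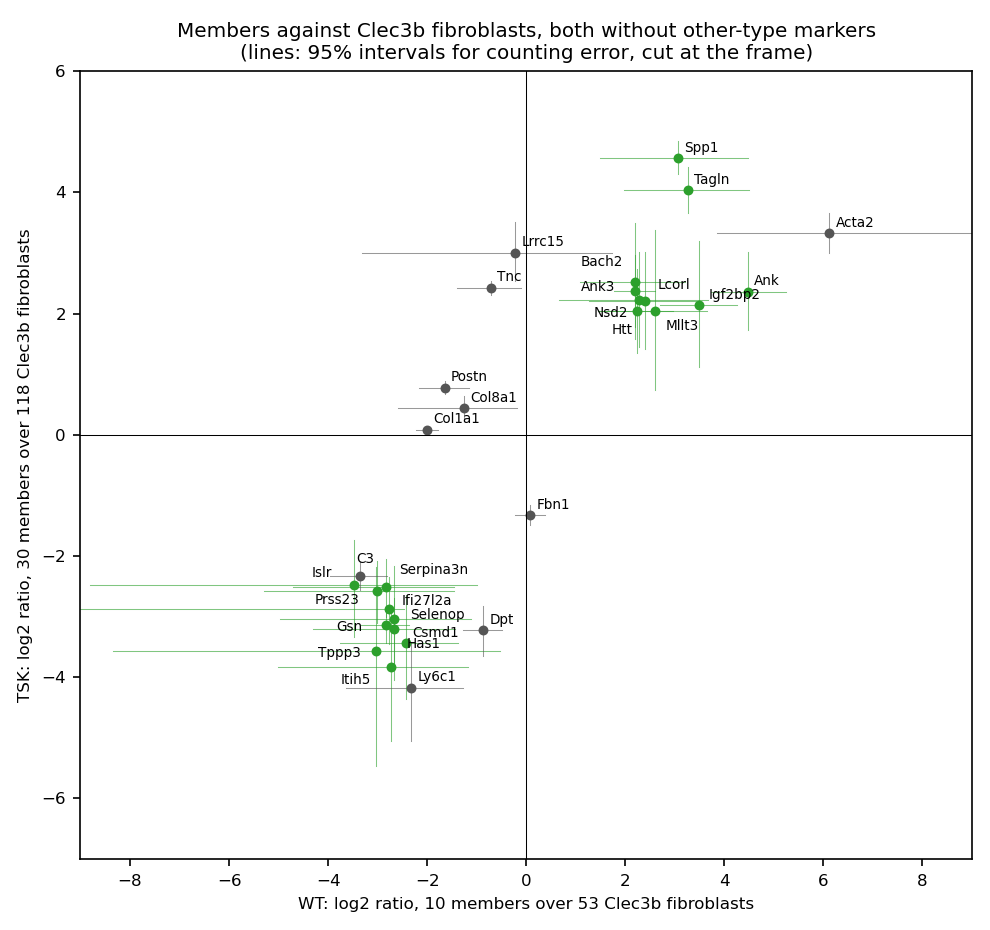
Log2 ratio of CPM between the members and the Clec3b fibroblasts, both without other-type markers, in WT (x axis, 10 against 53 cells) and TSK (y axis, 30 against 118 cells), with lines for 95% intervals of counting error. Gsn (-2.83 and -3.14) and C3 (-3.36 and -2.33) lie at the lower left and Tagln (3.27 and 4.04) at the upper right, and Tnc (-0.71 and 2.43) lies in opposite directions.

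Over all members, without leaving out any kind of cell, 3.86% (314) of 8137 genes were 2-fold or more higher than in all Clec3b fibroblasts in both libraries and 9.28% (755) were lower. The lower side was led by Prss23 and Serpina3n. The median depth of the TSK members (32958) was above that of the TSK Clec3b fibroblasts (11341.5), and that of the WT members (15968.5) was below theirs (21016). Only 9 of 67 WT and 26 of 156 TSK Clec3b fibroblasts were Lgals7/Cdkn2a-positive, so this comparison also sets groups of different makeup side by side.

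The comparison of genotypes began with the number of members. They made up 1.66% (1.07 to 2.47%) of the kept cells in WT and 7.97% (7.02 to 9.0%) in TSK, a log2 ratio of 2.26 (1.65 to 2.93). Of all gated cells, 26.4% (17.7 to 36.6%) in WT and 60.2% (55.2 to 65.1%) in TSK were members. Most of this difference lay in the Lgals7/Cdkn2a-positive members, which were 0.763% of kept WT and 6.69% of kept TSK cells. The members without other-type markers were 0.693% (0.333 to 1.27%) in WT and 1.01% (0.685 to 1.44%) in TSK, with overlapping intervals, and 15.9% (7.88 to 27.3%) and 20.3% (14.1 to 27.7%) of the gated cells without other-type markers. With the upper limit of 10000 UMIs only 7 WT and 25 TSK members remained, and the share of gated cells then turned to 41.2% in WT and 27.8% in TSK.

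Across all members, 17.1% (1665) of 9714 genes with at least 50 UMIs were 2-fold or more higher in TSK and 7.63% (741) lower, with a median log2 ratio of 0.23. Fbn1 had 286 UMIs in WT and 1057 in TSK, or 533 and 130 CPM (UMIs per 1000000 UMIs of the summed cells), a log2 ratio of -2.04 (-2.23 to -1.85). Col1a1 had a log2 ratio of -1.45 (-1.56 to -1.35), Postn of -1.36 (-1.56 to -1.16), Lrrc15 of -1.02 (-1.67 to -0.31) and Acta2 of -1.36. Most WT UMIs of Lrrc15 (18) and Acta2 (137) were in 1 cell, which also held 68 of Postn. Another WT cell held 109 Postn UMIs. Both cells reached 3 UMIs of another marker list and not of Lgals7 and Cdkn2a. Cell cycle genes stood on the other side: all 20 were higher by 2-fold or more (median 2.07), among them Top2a, a topoisomerase of dividing cells (40 and 4915 UMIs, log2 ratio 3.01, 2.57 to 3.5), and Mki67, a marker of proliferation (2.56, 1.84 to 3.40). Leaving the 3 WT and 1 TSK gated cells with shared barcodes in turned Mki67 to -0.35 and the count of higher genes to 634.

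These values moved with the makeup of the members. The Lgals7/Cdkn2a-positive members supplied 72.7% of the WT and 93.8% of the TSK member UMIs, and in the members without other-type markers Col1a1, Postn, Lrrc15 and Acta2 had log2 ratios of the opposite sign, as given below. The 3 WT members that reached another marker list were also left out there, and they held 109, 28 and 68 Postn UMIs. The WT Lgals7/Cdkn2a-positive members had no UMI of Postn or Lrrc15. With only Lgals7/Cdkn2a-positive members left out, Acta2 stayed lower in TSK. Of the fibrillar collagens, 5 of 7 were lower by 2-fold or more over all members (median -1.45), whereas 3 of 6 were higher and none lower in the members without other-type markers (median 1.21). The median of the cytokine and acute phase genes likewise was -1.12 with 17 of 29 lower and 3 higher, against 1.23 with 11 of 20 higher and 1 lower. The antigen presentation genes had 11 of 12 lower (median -1.54), against 3 of 5 higher (median 1.29). In the members without other-type markers, however, 52.3% of all genes tested were 2-fold or more higher and their median was 1.12, so these shares and medians lay near those of all genes.

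At the extremes over all members, single cells carried much of the signal. Opcml, a cell adhesion protein, had the smallest log2 ratio, -6.06, but 86 of its 88 WT UMIs were in 1 cell. Dmp1, a matrix protein of bone and teeth, followed at -5.54 with 51 of 55 WT UMIs in 1 cell. Pde7b, a cAMP phosphodiesterase, had the largest, 5.19 (3.33 to 8.24), with 2 UMIs in WT and 1110 in TSK spread over 135 of 236 cells. Several of the other 11 largest were genes of mitosis and DNA repair, Kif4, Kif11, Cit, Kntc1, Blm and Clspn.

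Within the Lgals7/Cdkn2a-positive members, 11 WT against 198 TSK cells, 15.8% (1469) of 9321 genes were 2-fold or more higher in TSK and 6.31% (588) lower, with a median of 0.18. Cell cycle genes had 18 of 20 higher and none lower (median 1.91), with Top2a at 2.71 (2.25 to 3.21) and Mki67 at 2.27 (1.51 to 3.14). These genes took a median of 0.0855% of the UMIs of a cell in WT (0.0312 to 0.419%) and 0.4% in TSK (0.0301 to 0.902%), so the cells overlapped. The antigen presentation list, whose products display peptides to T cells, had 9 of 12 lower and none higher (median -1.40), with B2m, the light chain of MHC class I, at -1.94 (-2.04 to -1.84) and H2-K1, a class I heavy chain, at -1.72 (-1.91 to -1.52). Of the fibrillar collagens 3 of 7 were lower and 2 higher (median -0.69). Col1a1 was lower, at -2.74, but 182 of its 249 WT UMIs were in 1 cell. Fbn1 was at -1.86 (-2.15 to -1.56) and Spp1 at -1.45 (-1.5 to -1.4), while Acta2 (2 and 504 UMIs) was at 3.68 (1.82 to 6.73). Acta2 was found in only 18 of the 198 TSK cells, with 123 of its UMIs in 1 cell, and 9 of the 18 also had Postn. Gm42418 took 15.2% of UMIs in WT and 2.27% in TSK (medians), and its part in these ratios was not tested gene by gene.

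In the members without other-type markers, 10 WT against 30 TSK cells, 52.3% (797) of 1524 genes were 2-fold or more higher in TSK and 15.4% (234) lower, with a median log2 ratio of 1.12, so a median gene of this comparison was itself past 2-fold. Each list is therefore read against that median. The matricellular genes had 11 of 13 higher and none lower (median 2.29), the crosslinking and folding genes 12 of 15 higher and 2 lower (median 2.01), the contractile genes 14 of 14 higher (median 2.38), the hypoxia and glycolysis genes 14 of 14 higher (median 2.35), the interferon response genes 8 of 9 higher and none lower (median 2.68) and the cell cycle genes 3 of 3 higher (median 3.14). Closer to the median of all genes lay the fibrillar collagens (1.21), the growth factors (6 of 10 higher, none lower, 1.08), the microfibril and elastic fiber genes (7 of 11 higher, none lower, 1.47), and the proteases and inhibitors (11 of 17 higher, none lower, 1.48). Below it lay the other collagens (5 of 10 higher, 1 lower, 0.79), the TGF-beta genes (4 of 10 higher, 2 lower, 0.81), the proteoglycans (3 of 8 higher, none lower, 0.53) and the adipogenic and skin fibroblast genes (1 of 4 higher, 2 lower, -0.40).

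Among matricellular genes in these cells, Tnc had 332 CPM in WT and 4238 CPM in TSK, a log2 ratio of 3.67 (3.07 to 4.35). Spp1, at 106 CPM in WT and 2531 in TSK, differed by 4.58 (3.53 to 5.90) on 7 WT UMIs and beside the Spp1 background of the TSK T cells given above. Postn, at 529 CPM in WT and 2763 in TSK, differed by 2.39 (1.90 to 2.92). All these were above the median of all genes, and Postn was found in 80% of the cells of either library. Thbs1 was at 2.13 (1.39 to 2.98), Sparc at 2.23 (1.96 to 2.51) and fibronectin, Fn1, at 1.58 (1.16 to 2.03).

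Of the collagens, Col1a1 (ENSMUSG00000001506, chr11:94936224-94953042, + strand) had 2568 CPM in WT and 8682 CPM in TSK, a log2 ratio of 1.76 (1.53 to 1.99). Col3a1 was at 0.82 (0.63 to 1.01) and Col8a1 at 2.83 (1.76 to 4.15) on 7 WT UMIs. Col4a1, a basement membrane collagen, was lower in TSK, at -1.48 (-2.07 to -0.87). Lox was at 1.79 (1.19 to 2.47), and Timp1, which inhibits matrix metalloproteinases, at 3.32 (2.57 to 4.20). Fbn1 was at -0.69 (-1.01 to -0.35), and 55 of its 100 WT UMIs were in 1 cell. Beside the median of all genes (1.12), Col3a1 lay below, Col8a1 and Timp1 above, and Fbn1 and Col4a1 were below 0.

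Contractile and activation genes rested on few WT UMIs. Lrrc15 had 2 and 130 UMIs, a log2 ratio of 3.52 (1.64 to 6.58), Acta2 9 and 324 (2.67, 1.73 to 3.81), Tagln 10 and 374 (2.72, 1.83 to 3.80) and Tpm1, a tropomyosin, 2 and 245 (4.43, 2.57 to 7.49). A WT member left out here for another marker list had 18 Lrrc15, 39 Tagln and 137 Acta2 UMIs. The 8 TSK members left out for this reason had at most 11, 60 and 35 each. With only Lgals7/Cdkn2a-positive cells left out, Acta2 was lower in TSK, so its direction here holds for this split only. Cthrc1, a secreted protein of activated fibroblasts, had no WT UMI and 83 in TSK, at least 4.89-fold higher. Cxcl9 was at 2.97 (2.08 to 4.04), with all 10 WT UMIs in 1 cell.

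Housekeeping genes were among the largest ratios in the same cells. Gapdh, a glycolytic enzyme found in most cells, had 3 UMIs, spread over 2 of the 10 WT cells, against 381 in 25 of 30 TSK cells, a log2 ratio of 4.49 (2.93 to 6.77). Pfn1, encoding profilin, had 1 and 190 UMIs, Rpl36al, encoding a ribosomal protein, 1 and 164, and Hint1, a nucleotide hydrolase, 1 and 133. In the Lgals7/Cdkn2a-positive members the same genes were at -0.23 (Gapdh), 0.27 (Pfn1), 0.38 (Rpl36al) and 0.50 (Hint1). The share of ribosomal protein genes moved in the same direction (1.16% in WT and 12.9% in TSK), as did depth (4147.5 and 11502.5 UMIs), and their part in the ratios of this comparison was not tested. When all ratios were centred on their median, 462 genes were higher and 511 lower in place of 797 and 234.

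The lowest ratios of these cells again came from single cells. Opcml was at -5.49 with 86 of 87 WT UMIs in 1 cell. Egfr, a growth factor receptor, was at -4.31 with 132 of 207 WT UMIs in 1 cell, and Kitl, the ligand of Kit, at -4.39 with 52 of 78 in 1 cell.

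**Figure D5:**
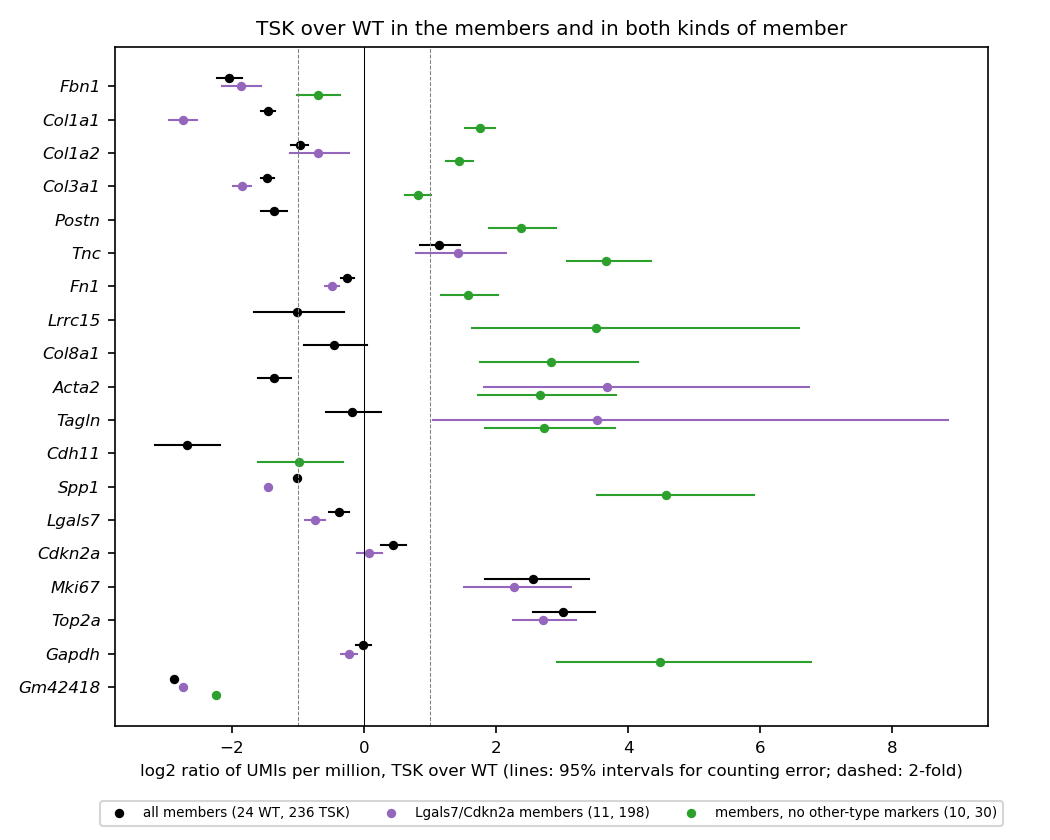
Log2 ratio of CPM, TSK over WT, for named genes in all members (24 and 236 cells), the Lgals7/Cdkn2a-positive members (11 and 198) and the members without other-type markers (10 and 30), with lines for 95% intervals of counting error and dashed lines at 2-fold. Col1a1 lies at -1.45 in all members, -2.74 in the Lgals7/Cdkn2a-positive members and 1.76 in the members without other-type markers, and Fbn1 lies below 0 in each (-2.04, -1.86 and -0.69).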

How the data were processed

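Single-cell 3′ libraries (10x Genomics, version 2 chemistry) were aligned to mm10 and counted by the authors with Cell Ranger (7.1.1 in the processing notes, 7.1.0 in the file header), and the deposited values are raw UMI counts per gene and barcode with no normalization. UMI counts of 3′ ends count molecules, so they were not scaled by gene length. From these counts, cells were kept and gated as described, with no doublet removal. The members and gene lists were chosen with earlier results of these data known. The division by Lgals7 and Cdkn2a, the comparisons built on it and some named genes outside the naming rule (such as Hmga2, Krt18 and Cdh11) were chosen after the values were seen.

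UMIs were summed per gene over the cells of a set and library, divided by the sum of all genes and given as CPM (per 1000000). Ratios, shares and sums have exact conditional, binomial and Poisson intervals (95%). Genes were counted past 2-fold among those with at least 50 UMIs over both libraries, or, between sets of cells, at least 20 in each library with 2-fold in the same direction in both libraries and the genes of the rule left out. A count of 0 was taken as up to 3 counts over the group. Named genes were the genes of the rule, the genes the study names for these tumors, the leading and extreme members of each list, the 12 genes at each end between genotypes and the 10 at each end between sets. T cells had at least 2 UMIs of Cd3 genes and 1 of Ptprc. Thinning was the expected share at 2000 UMIs. On simulated data with known ratios, intervals covered 96.2% of 9616 genes for all members and 97% of 1447 genes for the members without other-type markers. These data were drawn with the counting error that the intervals assume and with no variation between cells. The coverage therefore does not apply to counts that lie mostly in single cells. Gene positions are from GENCODE for GRCm38. Scripts ran under scipy 1.17.1 and pandas 2.3.3 with numpy 2.4.6 in Python 3.11.15, and figures were drawn with matplotlib 3.10.9. Alternatives were other limits on UMIs, mitochondrial share and the gate, shared barcodes kept, other filters, totals, weights and centring, a range of depth, and cells left out by markers.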

Additional observations from a re-analysis of the deposited data

How the results depend on the processing

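Log2 ratios are TSK over WT unless another pair is named, and the cause of each shift was not tested. The share of members among kept cells (2.26) was 0.95 without cells over 10000 UMIs, 2.94 with 0 UMIs of Clec3b, Pi16 and Cd34, 0.55 without other-type markers, 0.51 without Lgals7/Cdkn2a-positive cells and 1.27 over cells with no Ptprc. The share among gated cells (1.19) turned to -0.57 without cells over 10000 UMIs, and was 1.87, 0.35 and 0.30 under the next 3 settings.

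The 1665 genes higher and 741 lower over all members became 207 and 34 without cells over 10000 UMIs, 797 and 234 without other-type markers, 542 and 161 without Lgals7/Cdkn2a-positive cells, and 975 and 260 with a filter of 200 UMIs. The higher genes were 634 with shared barcodes kept and 3302 with equal weight of cells. The lower genes were 1122 after centring on the median of all genes, 239 in cells of 5000 to 20000 UMIs, 1193 with a filter of 20 UMIs, 2881 with no filter and 1135 with Gm42418 left out of totals. In the members without other-type markers, the 797 higher and 234 lower became 462 and 511 after centring, 520 higher in the 3 WT and 23 TSK cells of 5000 to 20000 UMIs, 153 lower with equal weight and 146 lower without the deepest cell of each library. Between members and Clec3b fibroblasts, the 314 higher and 755 lower of 8137 genes became 6 and 73 without cells over 10000 UMIs. They became 156 and 130 of 5260 genes without other-type markers, and 168 and 211 without Lgals7/Cdkn2a-positive cells. The higher genes there were 672 with shared barcodes kept, 1319 with the Clec3b, Pi16 and Cd34 limit set per 10000 UMIs, and 16 with 0 UMIs of these genes.

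Over all members, 20 gene values and 7 list medians that were at 2-fold or more changed sign. Sign changes of smaller values were not counted, such as that of the matricellular genes from -0.65 to 2.29 without other-type markers. Without cells over 10000 UMIs Col1a1 was 0.22, Lrrc15 0.28, Acta2 0.029, Opcml 0.15, other collagens 0.28 and cytokine and acute phase genes 1.10. With shared barcodes kept Mki67 was -0.35. With 0 UMIs of Clec3b, Pi16 and Cd34, Col1a1 was 0.27, Lrrc15 0.72, Acta2 1.25 and Actg2 0.50. Without other-type markers Col1a1 was 1.76, Postn 2.39, Lrrc15 3.52, Acta2 2.67, Actg2 0.16, fibrillar collagens 1.21, other collagens 0.79, cytokine and acute phase genes 1.23 and antigen presentation 1.29. Without Lgals7/Cdkn2a-positive cells Col1a1 was 0.95, Postn 0.66 and Lrrc15 1.05, while Acta2 stayed lower in TSK. In cells of 5000 to 20000 UMIs Col1a1 was 0.19, Lrrc15 3.02, Acta2 2.76 and the cytokine and acute phase genes 0.37. In the members without other-type markers, 85 gene values and 14 list medians were computed under these alternatives. None of those at 2-fold or more in the account above changed sign, and sign changes of smaller values were not counted. The alternatives applied to this set kept the marker split that made it, so they cannot show how its directions depend on that split. With only Lgals7/Cdkn2a-positive cells left out, Postn was 0.66 in place of 2.39 and Acta2 was lower in TSK. Centring on the median of all genes (1.12) takes smaller values past 0, such as the other collagens (0.79). Of the gene values, 48 moved out of their counting interval. Of the list medians, 4 moved by more than the standard deviation of the log2 ratios in the list.

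No paired analysis was possible because each genotype has 1 library and the labels carry no replicate numbers, and leaving out a replicate was not possible for the same reason. The 10 WT members without other-type markers held 66200 UMIs, and a gene under 50 UMIs over both libraries was not read there.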
